A study of Mus musculus with 14 samples.

Results

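The proteasome genes of the mouse were taken by symbol, as every listed gene named Psm followed by a letter from a to g and a number. The rule found 49 of the 15119 genes in the table, all 49 of which were also among the 15102 genes tested. Of these, 48 belong to the proteasome or act on it, and 1, Psmc3ip, is a recombination protein that shares only the start of its name. The members comprise 7 alpha ring subunits, 1 testis alpha subunit (Psma8), 4 structural and 3 constitutive catalytic beta subunits, 3 immunoproteasome catalytic subunits, 6 ATPases, 3 other base subunits and 8 lid subunits of the regulatory particle, 5 activator genes, 1 inhibitor (Psmf1), and 4 and 3 assembly chaperones of the core and of the regulatory particle. Psmb11, the catalytic subunit of the thymus, was not found under that symbol among the listed genes.

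RNA came from GFP-positive cells, labelled as precursor cells, of the dentate gyrus, the part of the hippocampus where neurons are added in adult mice. The mice carried B6.Cg-Tg(Nes-EGFP)1Yamm, where regulatory elements of the Nestin gene drive green fluorescent protein, and no animal was treated. The cells were sorted by their signal of dihydroethidium, a dye that fluoresces once oxidised by superoxide and other reactive oxygen species (ROS), into the classes ROS+ (5 libraries), ROS++ (5 libraries) and ROS+++ (4 libraries). Age, sex, the number of animals and any pooling were not given in the sources used here, so the p-values measure the spread between these libraries, which may be partly technical. Depth was 20832009 to 25313902 reads in the ROS+ class, ranged from 18325361 to 23454022 in ROS++ samples, and was 12704227 in ROS+++ replicate 4 and 20376708 to 20998589 in the 3 other ROS+++ samples. Levels are given as CPM, the reads of a gene scaled to the total of its library, and differences as the difference of class means of log2(CPM + 1) with the standard error of the limma model.

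The proteasome is the cell's main machine for degrading proteins tagged with ubiquitin. Its core is a barrel of outer alpha rings and inner beta rings, and 3 of the beta subunits, Psmb5, Psmb6 and Psmb7, cut the substrate. A regulatory particle of ATPases, ubiquitin receptors and a lid binds the core, removes ubiquitin and feeds the unfolded substrate in. Interferon-gamma is known to induce the immunoproteasome, in which Psmb8, Psmb9 and Psmb10 take the places of Psmb5, Psmb6 and Psmb7, and the activator cap made of Psme1 and Psme2. This form favours peptides that fit class I antigen presentation and has been linked to the clearance of oxidised proteins. In neural stem cells proteasome activity is known to take part in protein quality control. Oxidant stress and loss of proteasome function are also known to raise proteasome genes through the factors NRF1 and NRF2, which bind antioxidant response elements.

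The promoters of the genes that the results turn on are shown from the RefSeq table of build GRCm38.p6, each with 250 bases before and 50 bases from the annotated start, written 5′ to 3′ on the gene's strand. The set places the immunoproteasome subunits Psmb8 (chr17:34197945-34198244, plus strand) and Psmb9 (chr17:34187281-34187580, minus strand) and the activator Psme1 (chr14:55578244-55578543, plus strand) beside the constitutive Psmb5 (chr14:54617946-54618245, minus strand) and Psmb6 (chr11:70525107-70525406, plus strand). In the GENCODE M21 annotation Psmb8 starts at 34197721, Psme1 at 55578123 and Psmb9, on the minus strand, at 34187764. The windows shown for these genes therefore lie inside the genes as GENCODE places them. They do not cover the bases before those other starts. Capitals mark matches to 4 short motifs searched on both strands.
Psmb8: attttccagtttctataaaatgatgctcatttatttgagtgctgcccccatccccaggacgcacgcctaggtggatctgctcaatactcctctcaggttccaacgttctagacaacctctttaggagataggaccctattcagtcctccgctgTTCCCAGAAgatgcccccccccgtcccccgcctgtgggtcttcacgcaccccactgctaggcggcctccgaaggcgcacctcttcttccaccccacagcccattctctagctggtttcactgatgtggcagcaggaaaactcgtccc
Psmb9: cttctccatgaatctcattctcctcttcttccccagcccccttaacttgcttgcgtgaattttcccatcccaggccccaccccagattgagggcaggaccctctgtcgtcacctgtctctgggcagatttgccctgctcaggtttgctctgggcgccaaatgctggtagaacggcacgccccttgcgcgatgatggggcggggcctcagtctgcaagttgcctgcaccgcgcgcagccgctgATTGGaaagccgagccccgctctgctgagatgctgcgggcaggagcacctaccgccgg
Psme1: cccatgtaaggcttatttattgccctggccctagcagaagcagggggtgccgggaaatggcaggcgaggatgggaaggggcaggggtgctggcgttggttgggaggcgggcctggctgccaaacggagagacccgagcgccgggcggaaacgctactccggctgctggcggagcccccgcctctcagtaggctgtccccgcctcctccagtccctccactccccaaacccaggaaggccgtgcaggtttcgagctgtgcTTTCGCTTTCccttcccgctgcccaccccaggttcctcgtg
Psmb5: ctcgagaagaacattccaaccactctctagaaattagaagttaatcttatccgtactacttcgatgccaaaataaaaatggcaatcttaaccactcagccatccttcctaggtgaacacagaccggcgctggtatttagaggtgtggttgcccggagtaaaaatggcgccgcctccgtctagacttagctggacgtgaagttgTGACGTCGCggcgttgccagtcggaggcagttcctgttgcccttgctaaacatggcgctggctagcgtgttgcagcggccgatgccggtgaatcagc
Psmb6: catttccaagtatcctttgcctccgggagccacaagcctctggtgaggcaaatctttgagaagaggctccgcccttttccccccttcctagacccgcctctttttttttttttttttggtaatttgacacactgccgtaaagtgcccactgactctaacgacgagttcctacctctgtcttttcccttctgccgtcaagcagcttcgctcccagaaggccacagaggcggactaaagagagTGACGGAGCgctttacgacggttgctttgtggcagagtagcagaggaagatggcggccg

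The motifs were the core of the interferon-stimulated response element, spelled GAAA, any 2 bases and GAAA again, TTCNNNGAA, the GAS palindrome that STAT factors bind, TGACNNNGC, the core of the antioxidant response element, and CCAAT, the NF-Y box. None of the 4 contains another. Psmb8 held a GAS match that starts 97 bases before the annotated start, and Psme1 held an interferon-stimulated response element match on the opposite strand, 10 bases after the start. Psmb5 and Psmb6 held antioxidant response element matches 47 and 9 bases before the start. Psmb9 held a CCAAT match on the opposite strand, 8 bases before the start. The table holds a window for 41 of the 49 members, in 44 windows. The interferon element was found in 5 of the 44 windows (Psmb3, Psmd4, Psmd9, Psme1 and Psmg4) and in 3.44% of all 32851 windows of that length. GAS was found in 3 member windows (Psmb8, Psmd2 and Psmg1) and in 8.30% of all windows, and the antioxidant element in 6 (Psmb5, Psmb6, Psmc6, Psmd12, Psmd9 and Psme4) and in 12.4% of all windows. CCAAT was found in 14 member windows and in 37.4% of all windows. These matches describe the letters in the windows and were not tested for binding.

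The gene family together took 0.783% to 0.858% of the reads of a ROS+ library (median 0.821%), 0.725% to 0.889% of a ROS++ library (median 0.812%) and 0.647% to 0.699% of a ROS+++ library (median 0.664%). The ROS+++ libraries thus lay below all libraries of both other classes. This share depends on what else was in the library. Under 3 other scalings between libraries (relative log expression, upper-quartile and TMM factors), the median difference of all genes between ROS+++ and ROS+ moved up by 0.27 to 0.40 on the log2 scale, and that between ROS+++ and ROS++ by 0.25 to 0.37. Between ROS++ and ROS+ it moved by at most 0.04. In bulk RNA, a change in the number of cells of a type cannot be told apart from a change of RNA per cell.

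Marker genes of further cell types also differed among the classes. Of 20 microglia and macrophage markers, 19 were listed, and their sum was 6.43 to 27.8, 1246 to 3258 and 1004 to 3975 CPM for ROS+, ROS++ and ROS+++. All 19 rose in ROS++ and all 19 in ROS+++, each against ROS+, and 1 rose in ROS+++ against ROS++. The 15 mural markers, of pericytes and vascular smooth muscle, summed to 202.1 to 737.3, 8717 to 25370 and 56510 to 65429 CPM in ROS+, ROS++ and ROS+++ libraries. All 15 rose in both classes against ROS+, and 11 rose in ROS+++ against ROS++. The 10 endothelial markers summed to 112.7 to 305.7, 192.9 to 585.6 and 1337 to 1618 CPM in the same order. Of the 10, 2 rose in ROS++ and 5 in ROS+++, each against ROS+, and 3 rose in ROS+++ against ROS++. Of all tested genes, 16.4%, 19.2% and 9.89% were called higher in these comparisons. Most of the ROS+++ sum came from Esam (mean 940.0 CPM) and Emcn (261.1 CPM), while Pecam1 averaged 15.1, 6.66 and 11.7 CPM, Cldn5 2.47, 2.25 and 3.22 CPM and Cdh5 2.34, 1.97 and 4.40 CPM in ROS+, ROS++ and ROS+++ libraries. No list had a member at 0 in every library of a class.

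The label of precursor cells was set against 10 stem cell markers, which summed to 1005 to 1569, 5489 to 7557 and 2416 to 5781 CPM, and 10 neuronal precursor markers, which summed to 11983 to 17407, 1004 to 2511 and 35.6 to 214.9 CPM in ROS+, ROS++ and ROS+++ libraries. Nes, the gene whose elements drive the sort marker, averaged 16.6 ± 4.63, 95.5 ± 18.8 and 227.2 ± 77.7 CPM (SD, n = 5, 5 and 4) in that order. The neuronal precursor gene Dcx averaged 444.0, 81.5 and 3.17 CPM and the pericyte gene Rgs5 149.1, 5376 and 22325 CPM. In the ROS+++ libraries the markers go against the label of precursor cells, since the mural sum was above the stem cell and neuronal precursor sums in each of the 4. In ROS++ libraries, too, the mural sum was above both. Most of that sum came from Rgs5 and Vtn (means 5376 and 5570 CPM), and the ranking was not repeated without them. Of the 10 stem cell markers, 9 were called higher and 0 lower in ROS++ than in ROS+. Of the 10 neuronal precursor markers, 0 were called higher and 9 lower there, beside 16.4% and 13.2% of all tested genes. The part of these markers in the proteasome gene differences was not tested.

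Core subunits that stand together in equal numbers did not have equal transcript levels. Per kilobase of transcript, the lowest of the 14 constitutive core genes was Psmb5 with 47.6 CPM per kb in ROS+ libraries, and the highest was Psmb6 with 577.0 CPM per kb, a 12.1-fold range. In ROS++ libraries Psmb4 was the lowest with 53.3 CPM per kb, and in ROS+++ libraries it was Psmb5 with 41.7 CPM per kb, while Psmb6 stayed the highest with 668.7 and 505.1 CPM per kb. Among the 17 regulatory particle genes Psmd3, a lid subunit, was the lowest in all classes, with 5.23, 8.09 and 4.95 CPM per kb in ROS+, ROS++ and ROS+++ libraries. The highest was the ATPase Psmc1 in ROS+ libraries (252.0 CPM per kb) and the ATPase Psmc4 in ROS++ and ROS+++ libraries (252.7 and 220.7 CPM per kb).

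Among the 49 members, 6 rose and 3 fell in ROS++ against ROS+, where 29.6% of all tested genes were called, 16.4% higher and 13.2% lower. In ROS+++ against ROS+, 7 members were called higher and 22 lower in library-total CPM, where 59.2% of all tested genes were called, 19.2% higher and 40% lower. In ROS+++ against ROS++, 3 were called higher and 17 lower, where 39.1% of all were called, 9.89% higher and 29.2% lower. The median difference of the members was -0.02, -0.29 and -0.31 in these comparisons, beside -0.03, -0.44 and -0.34 for all tested genes. The classes did not overlap for 5 higher and 2 lower members in ROS++ against ROS+ (12.1% and 10.9% of all tested genes), for 6 and 18 in ROS+++ against ROS+ (16.8% and 33.2%) and for 3 and 12 in ROS+++ against ROS++ (7.48% and 19.5%), counted over all members, called or not.

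The split of the calls depended on the scaling for the ROS+++ class. Against ROS+, 16 members were called higher and 4 lower with relative log expression factors (26.5% and 25.9% of all tested genes), 10 and 5 with upper-quartile factors (23.5% and 30.1%) and 14 and 4 with TMM factors (25.3% and 27.5%). Against ROS++ the counts were 11 and 3 (18.7% and 17.1%), 9 and 7 (14.8% and 20.1%), and 10 and 4 (16.3% and 18.8%). Called higher against ROS+ under all 4 scalings were Psma8, Psmb8, Psmb9, Psmb10, Psmc2, Psmd10 and Psme2b, and called lower Psmd2, Psmd6, Psmd14 and Psmg4 (19.2% and 25.9% of all tested genes). Against ROS++ those were Psma8, Psmb8 and Psmb10 (higher) and Psmc3ip, Psmd6 and Psmg4 (lower), beside 9.89% and 17.1% of all. Between ROS++ and ROS+ they were Psmb2, Psmb8, Psmb9, Psmc3ip and Psme2 (higher) and Psma3, Psmc6 and Psmd14 (lower), beside 16.2% and 11.7% of all.

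**Figure D1:**
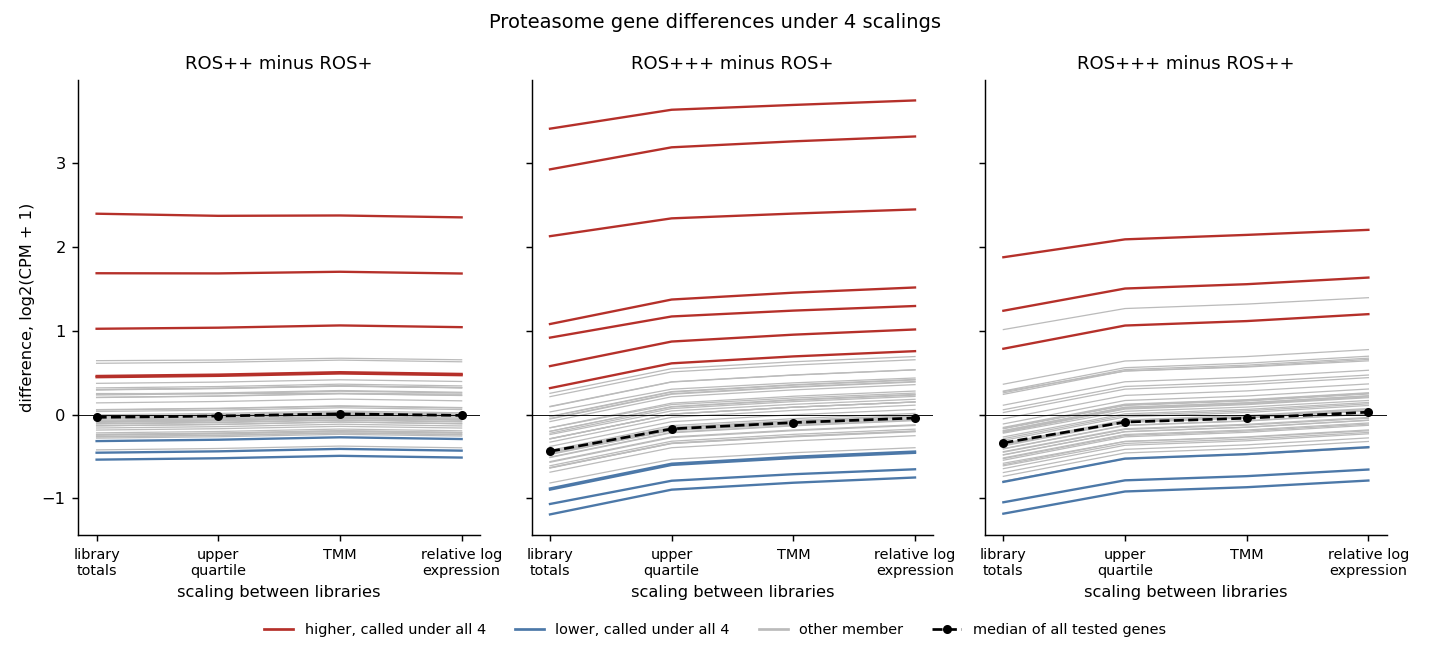
Difference of each of the 49 genes between ROS classes on the log2(CPM + 1) scale (vertical axis) under 4 scalings between libraries (horizontal axis), 1 line per gene, with the median of all tested genes as a dashed line. Relative to library totals, the other scalings move all lines up by about the same amount in the ROS+++ panels, so that genes near 0 change sign, while the red (higher) and blue (lower) genes are those called under all 4 scalings.

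All 3 immunoproteasome subunits had class means in the order ROS+, ROS++, ROS+++. In the mm10 build with GENCODE M21, Psmb8 lies on chromosome 17 from 34197721 to 34201454 (plus strand), Psmb9 on chromosome 17 from 34181987 to 34187764 (minus strand) and Psmb10 on chromosome 8 from 105935735 to 105938444 (minus strand), and each is overlapped by an annotated gene on the other strand. Psmb8, the subunit that replaces Psmb5, had 3.63, 1.44, 2.10, 3.58 and 2.44 CPM in the ROS+ libraries, 19.4, 9.77, 9.12, 10.6 and 6.38 CPM in the ROS++ libraries, and 29.1, 28.0, 19.5 and 27.9 CPM in the ROS+++ libraries. No library of one class overlapped with those of another. It rose by 1.69 ± 0.32 in ROS++ against ROS+ (adjusted p = 0.000612), by 2.92 ± 0.34 in ROS+++ against ROS+ (adjusted p = 9.86e-07) and by 1.24 ± 0.34 in ROS+++ against ROS++ (adjusted p = 0.0076; limma with Benjamini-Hochberg adjustment over all tested genes, as for all adjusted p-values of single genes here). Psmb8 was called in each comparison under all 23 alternative settings.

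Psmb9, the replacement of Psmb6, had 0, 0.144, 0, 1.88 and 1.55 CPM in the ROS+ libraries. The counts of 0, in replicates 1 and 3, allow up to 0.119 and 0.134 CPM. The ROS++ libraries had 14.0, 10.8, 10.2, 9.97 and 0.546 CPM. The ROS+++ libraries had 12.1, 23.1, 21.3 and 8.89 CPM. The ROS++ libraries lay above all ROS+ libraries except for replicate 5, which fell among them. Psmb9 rose by 2.40 ± 0.56 in ROS++ against ROS+ (adjusted p = 0.00326) and by 3.41 ± 0.59 in ROS+++ against ROS+ (adjusted p = 8.89e-05), both called under all 23 alternatives, although a pseudocount of 0.1 CPM gave 4.06 and 5.33 and limma-voom 5.14 and 6.46. The difference between ROS+++ and ROS++ was 1.01 ± 0.59 with overlapping libraries (adjusted p = 0.188). Psmb9 overlaps Tap1, a peptide transporter of antigen presentation, on the other strand, and with no strand information their reads cannot be told apart there. The class means of Tap1 were 6.17 ± 4.41, 14.4 ± 10.1 and 19.0 ± 9.19 CPM for ROS+, ROS++ and ROS+++ (SD, n = 5, 5 and 4).

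Psmb10, the replacement of Psmb7, had 43.6, 43.9, 36.3, 43.2 and 42.5 CPM in the ROS+ libraries, 66.4, 50.2, 48.6, 58.3 and 38.3 CPM in the ROS++ libraries, and 74.2, 96.5, 100.2 and 89.3 CPM in the ROS+++ libraries. All ROS+++ libraries lay above every other library, while ROS++ and ROS+ overlapped through ROS++ replicate 5. It rose by 1.08 ± 0.17 in ROS+++ against ROS+ (adjusted p = 3.89e-05) and by 0.79 ± 0.17 in ROS+++ against ROS++ (adjusted p = 0.00155), called under all 23 alternatives. Between ROS++ and ROS+ the difference was 0.29 ± 0.16 (adjusted p = 0.192). Per kilobase, Psmb10 averaged 68.7 CPM in ROS+++ libraries, Psmb8 16.1 CPM and Psmb9 12.1 CPM, against 32.0, 1.62 and 0.528 CPM in ROS+ libraries.

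**Figure D2:**
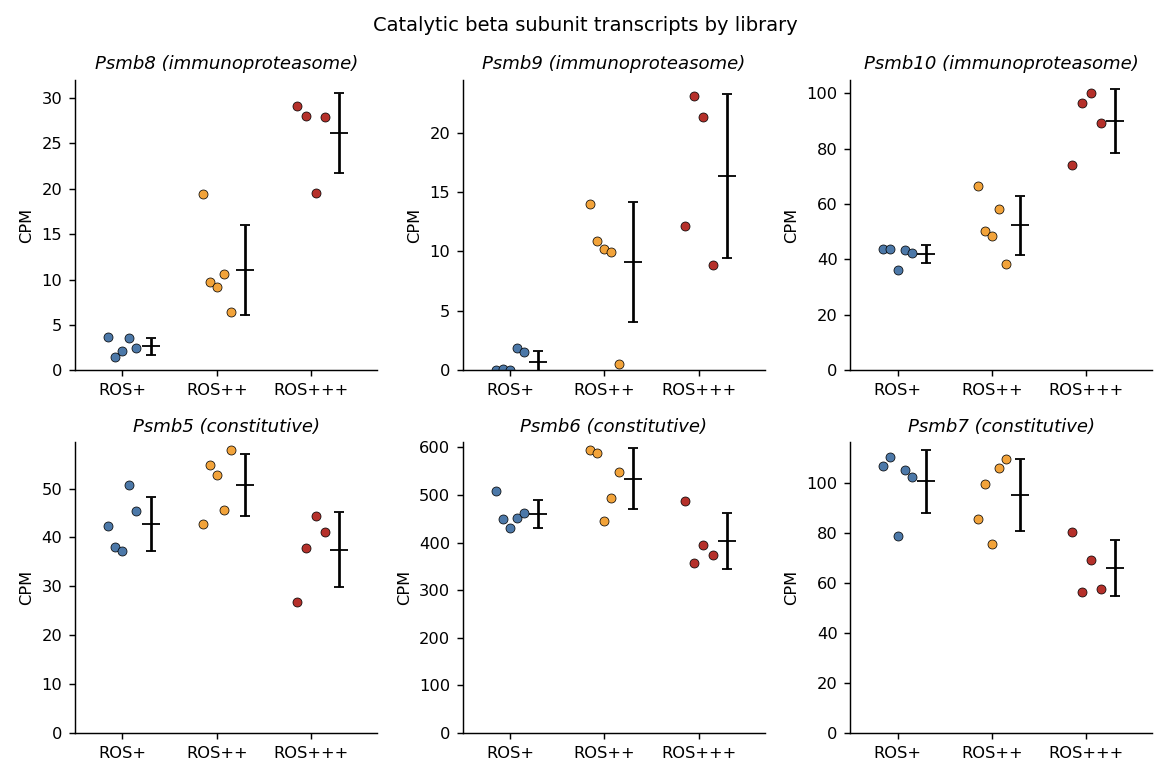
Transcript levels of the catalytic beta subunits in CPM, 1 point per library, by ROS class, with the class mean and SD beside the points (5, 5 and 4 libraries; error bars end at the axis where they would pass below 0). The top row holds the immunoproteasome subunits and the bottom row the constitutive subunit each replaces. Psmb8 libraries reach 19.5 to 29.1 CPM in ROS+++ and 1.44 to 3.63 CPM in ROS+.

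The constitutive catalytic subunits gave 1 lower call in ROS+++ against ROS+ and 2 in ROS+++ against ROS++ in library-total CPM. Each was lost under all 3 other scalings. Of all tested genes, 40% and 29.2% were called lower in these comparisons. Psmb5, which cuts after hydrophobic residues, had 42.3, 38.0, 37.2, 50.8 and 45.5 CPM in the ROS+ libraries, 42.7, 54.8, 52.8, 45.7 and 57.9 CPM in the ROS++ libraries, and 26.8, 37.8, 44.4 and 41.1 CPM in the ROS+++ libraries. Its classes overlapped, and no comparison was called (differences 0.24 ± 0.18 for ROS++ against ROS+, -0.20 ± 0.19 for ROS+++ against ROS+ and -0.44 ± 0.19 for ROS+++ against ROS++, adjusted p = 0.332, 0.375 and 0.0708). Psmb6, which cuts after acidic residues, had 509.3, 449.6, 430.0, 452.3 and 461.0 CPM in the ROS+ libraries, 595.3, 587.2, 444.3, 494.2 and 547.2 CPM in the ROS++ libraries, and 487.8, 356.0, 393.9 and 374.6 CPM in the ROS+++ libraries. In library-total CPM Psmb6 was lower in ROS+++ than in ROS++ by -0.41 ± 0.11 (adjusted p = 0.00693), a call that none of the 3 other scalings kept and that turned to 0.011 with relative log expression factors. The differences of Psmb6 between ROS++ and ROS+ (0.21 ± 0.10, adjusted p = 0.148) and between ROS+++ and ROS+ (-0.20 ± 0.11, adjusted p = 0.126) were not called. Without ROS+++ replicate 1, the highest of that class, the difference from ROS+ was called lower.

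Psmb7, which cuts after basic residues, had 106.6, 110.5, 78.8, 105.3 and 102.4 CPM in the ROS+ libraries, 85.4, 99.5, 75.4, 105.8 and 109.7 CPM in the ROS++ libraries, and 80.3, 56.5, 69.1 and 57.6 CPM in the ROS+++ libraries. Among the ROS+++ libraries, replicate 1 overlapped with the lowest of both other classes. In library-total CPM it was lower in ROS+++ than in ROS+ by -0.61 ± 0.16 (adjusted p = 0.00327) and than in ROS++ by -0.53 ± 0.16 (adjusted p = 0.0143), and neither call held under the other scalings. The ROS++ to ROS+ difference was -0.08 ± 0.15 (adjusted p = 0.718).

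Apart from the pseudocount, a ratio of 2 genes within a library does not depend on the scaling between libraries, so each immunoproteasome subunit was set against the subunit it replaces. The log2 ratio of Psmb8 to Psmb5 averaged -3.62 ± 0.29 in ROS+, -2.18 ± 0.70 in ROS++ and -0.50 ± 0.52 in ROS+++ libraries (SD, n = 5, 5 and 4). It was higher in ROS++ than in ROS+ by 1.44, in ROS+++ than in ROS+ by 3.12 and in ROS+++ than in ROS++ by 1.68 (adjusted p = 0.0198, 0.0198 and 0.0357, exact two-sided permutation tests over libraries, adjusted over 15 ratio comparisons). As a share of Psmb5 and Psmb8 per length of transcript, Psmb8 made up 3.24% ± 0.94 in ROS+, 10.96% ± 5.45 in ROS++ and 28.3% ± 7.38 in ROS+++ libraries.

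The log2 ratio of Psmb9 to Psmb6 averaged -8.23 ± 0.78 in ROS+, -6.05 ± 1.36 in ROS++ and -4.63 ± 0.71 in ROS+++ libraries. The differences were 2.19 for ROS++ against ROS+, 3.61 for ROS+++ against ROS+ and 1.42 for ROS+++ against ROS++ (adjusted p = 0.0357, 0.0198 and 0.0496, exact permutation tests). Their size depended on the added constant: with a pseudocount of 0.1 CPM in place of 1 CPM they were 3.86, 5.53 and 1.67, the last no longer called. In ROS+++ libraries Psmb9 and Psmb8 averaged 12.1 and 16.1 CPM per kb, but Psmb6 and Psmb5 averaged 505.1 and 41.7 CPM per kb. Shares per length are therefore not comparable between pairs. Psmb9 made up 0.0922% ± 0.119, 1.00% ± 0.542 and 2.40% ± 1.17 of its own pair per length in ROS+, ROS++ and ROS+++ libraries. The log2 ratio of Psmb10 to Psmb7 averaged -1.24 ± 0.08, -0.86 ± 0.43 and 0.45 ± 0.39 in the same order, higher in ROS+++ than in ROS+ by 1.69 and than in ROS++ by 1.31 (both adjusted p = 0.0198, exact permutation tests). The difference of 0.38 between ROS++ and ROS+ had an adjusted p of 0.0916 (exact permutation test). It was called in 1 of the alternatives tried and ranged from 0.25 to 0.54 when single libraries were left out. Psmb10 made up 27.0% ± 1.13, 32.9% ± 6.41 and 54.8% ± 6.75 of its pair per length.

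The smallest unadjusted p that these exact tests allow is 0.00794, so leaving out 1 library can by itself take an adjusted p past 0.05. All the ratio differences of ROS+++ against ROS+ just given, and those of Psmb8 to Psmb5 for ROS++ against ROS+, lost their call without ROS+ replicate 1 or without ROS+ replicate 3. Psmb10 to Psmb7 for ROS+++ against ROS++ lost it without ROS++ replicate 2 or 3, and Psmb9 to Psmb6 for ROS++ against ROS+ without ROS+ replicate 1 or 3 or any of ROS++ replicates 1 to 4. For ROS+++ against ROS++, Psmb8 to Psmb5 lost its call without any of ROS++ replicates 2 to 5 or ROS+++ replicate 1, 2 or 4, and Psmb9 to Psmb6 without ROS++ replicate 2 or 3 or any 1 ROS+++ library. Without ROS++ replicate 5 the difference of Psmb9 to Psmb6 was 0.81 there. Each of these differences kept its sign.

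**Figure D3:**
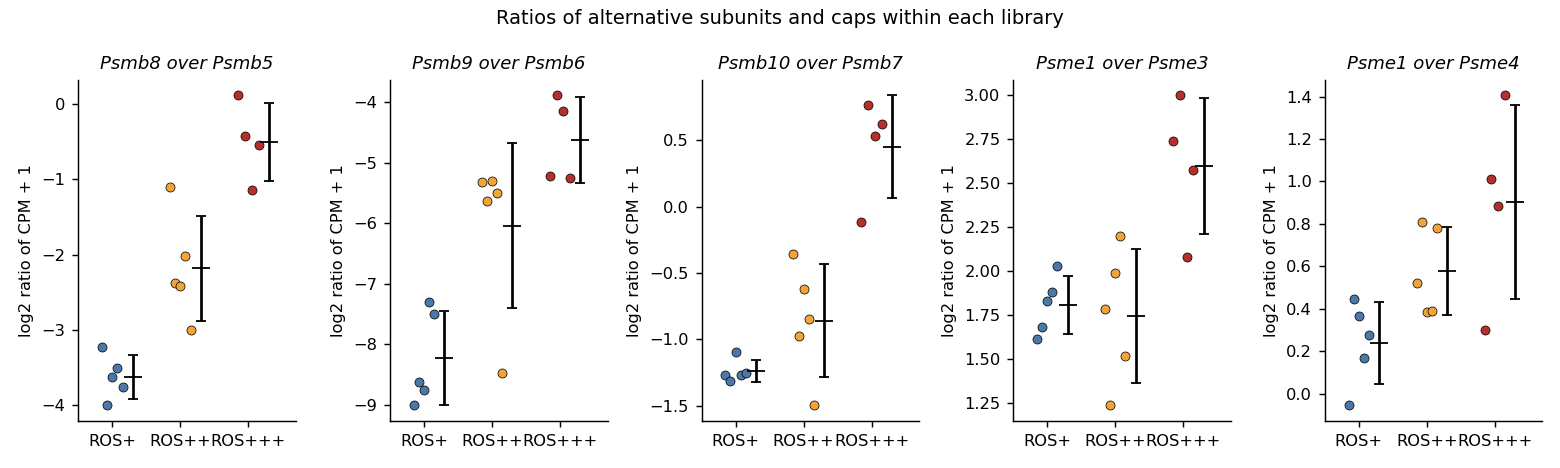
Log2 ratio of CPM + 1 between paired proteasome genes within each library, 1 point per library, by ROS class, with the class mean and SD beside the points (5, 5 and 4 libraries). The ratio of Psmb8 to Psmb5 averages -0.50 in ROS+++ and -3.62 in ROS+, and the ratio of Psmb10 to Psmb7 averages 0.45 in ROS+++ and -1.24 in ROS+.

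Of the 14 constitutive core genes, 1 rose and 1 fell in ROS++ against ROS+, where 16.4% of all tested genes were called higher and 13.2% lower. Psmb2, a structural beta subunit, had 352.4, 485.3, 375.8, 410.4 and 433.8 CPM in the ROS++ libraries, against 328.6, 294.4, 253.8, 315.0 and 298.3 CPM in the ROS+ libraries. The classes did not overlap, and Psmb2 rose by 0.46 ± 0.12 (adjusted p = 0.00872). Psma3, an alpha ring subunit, fell by 0.32 ± 0.08 (adjusted p = 0.00512), with 320.7, 356.0, 326.4, 349.8 and 316.4 CPM in the ROS++ libraries, against 436.8, 436.6, 409.2, 404.9 and 391.0 CPM in the ROS+ libraries. Again no libraries overlapped, and both calls held under all 4 scalings. The other 6 alpha ring genes and the other 3 structural beta genes were not called between ROS++ and ROS+, with differences from -0.26 (Psma1 and Psmb4) to 0.30 (Psmb3).

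In ROS+++ against ROS+, 6 of the 7 alpha ring genes were called lower in library-total CPM, where 40% of all tested genes were. These 6 were Psma2, Psma3, Psma4, Psma5, Psma6 and Psma7, with differences from -0.29 to -0.64. None of the 6 kept its call under all of the other scalings. Psma2 took the opposite sign in all 3 of those scalings and Psma3, Psma6 and Psma7 in at least 1. Psma4, the alpha ring gene with the largest difference, had 138.5, 126.7, 145.4 and 149.9 CPM in the ROS+++ libraries, against 235.6, 216.9, 189.7, 226.9 and 224.3 CPM in the ROS+ libraries. Its libraries did not overlap, and the difference of -0.64 ± 0.11 (adjusted p = 9.7e-05) was still called with upper-quartile factors but not with the other 2. Psma1 was not called, with 258.0 to 303.3 CPM in ROS+++ and 265.2 to 301.9 CPM in ROS+ libraries (difference -0.02 ± 0.13, adjusted p = 0.902), although relative log expression and TMM factors called it higher. Of the structural beta genes only Psmb1 was called, lower by -0.46 ± 0.10 (adjusted p = 0.000626), and none of the 3 other scalings kept that call. Psmb2, Psmb3 and Psmb4 had differences of -0.08 ± 0.13, 0.09 ± 0.12 and 0.10 ± 0.20.

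Between ROS+++ and ROS++, 7 of the 14 constitutive core genes were called lower in library-total CPM, where 29.2% of all tested genes were. None of these 7 (Psma4, Psma5, Psma7, Psmb1, Psmb2, Psmb6 and Psmb7) was called lower under all 4 scalings. Their differences ran from -0.31 (Psma7) to -0.60 (Psma4).

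Psma8, an alpha subunit known from the testis, where it replaces Psma7 in germ cells, had 6.59, 4.51, 9.24 and 5.35 CPM in the ROS+++ libraries, against 0.0524, 4.45, 1.75, 0.869 and 0 CPM in the ROS++ libraries and 1.03, 0.672, 0.0446, 1.53 and 0.375 CPM in the ROS+ libraries. The ROS+++ libraries lay above all others, although ROS++ replicate 2 came close to the lowest of them. Psma8 rose by 2.13 ± 0.46 against ROS+ (adjusted p = 0.000732) and by 1.88 ± 0.46 against ROS++ (adjusted p = 0.00362). Both calls held under all 23 alternatives, with sizes of 3.33 and 3.26 at a pseudocount of 0.1 CPM and of 3.65 and 3.82 in limma-voom. Per kilobase it averaged 3.80 CPM in ROS+++ libraries, against 380.1 CPM for Psma7 in the same libraries.

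**Figure D4:**
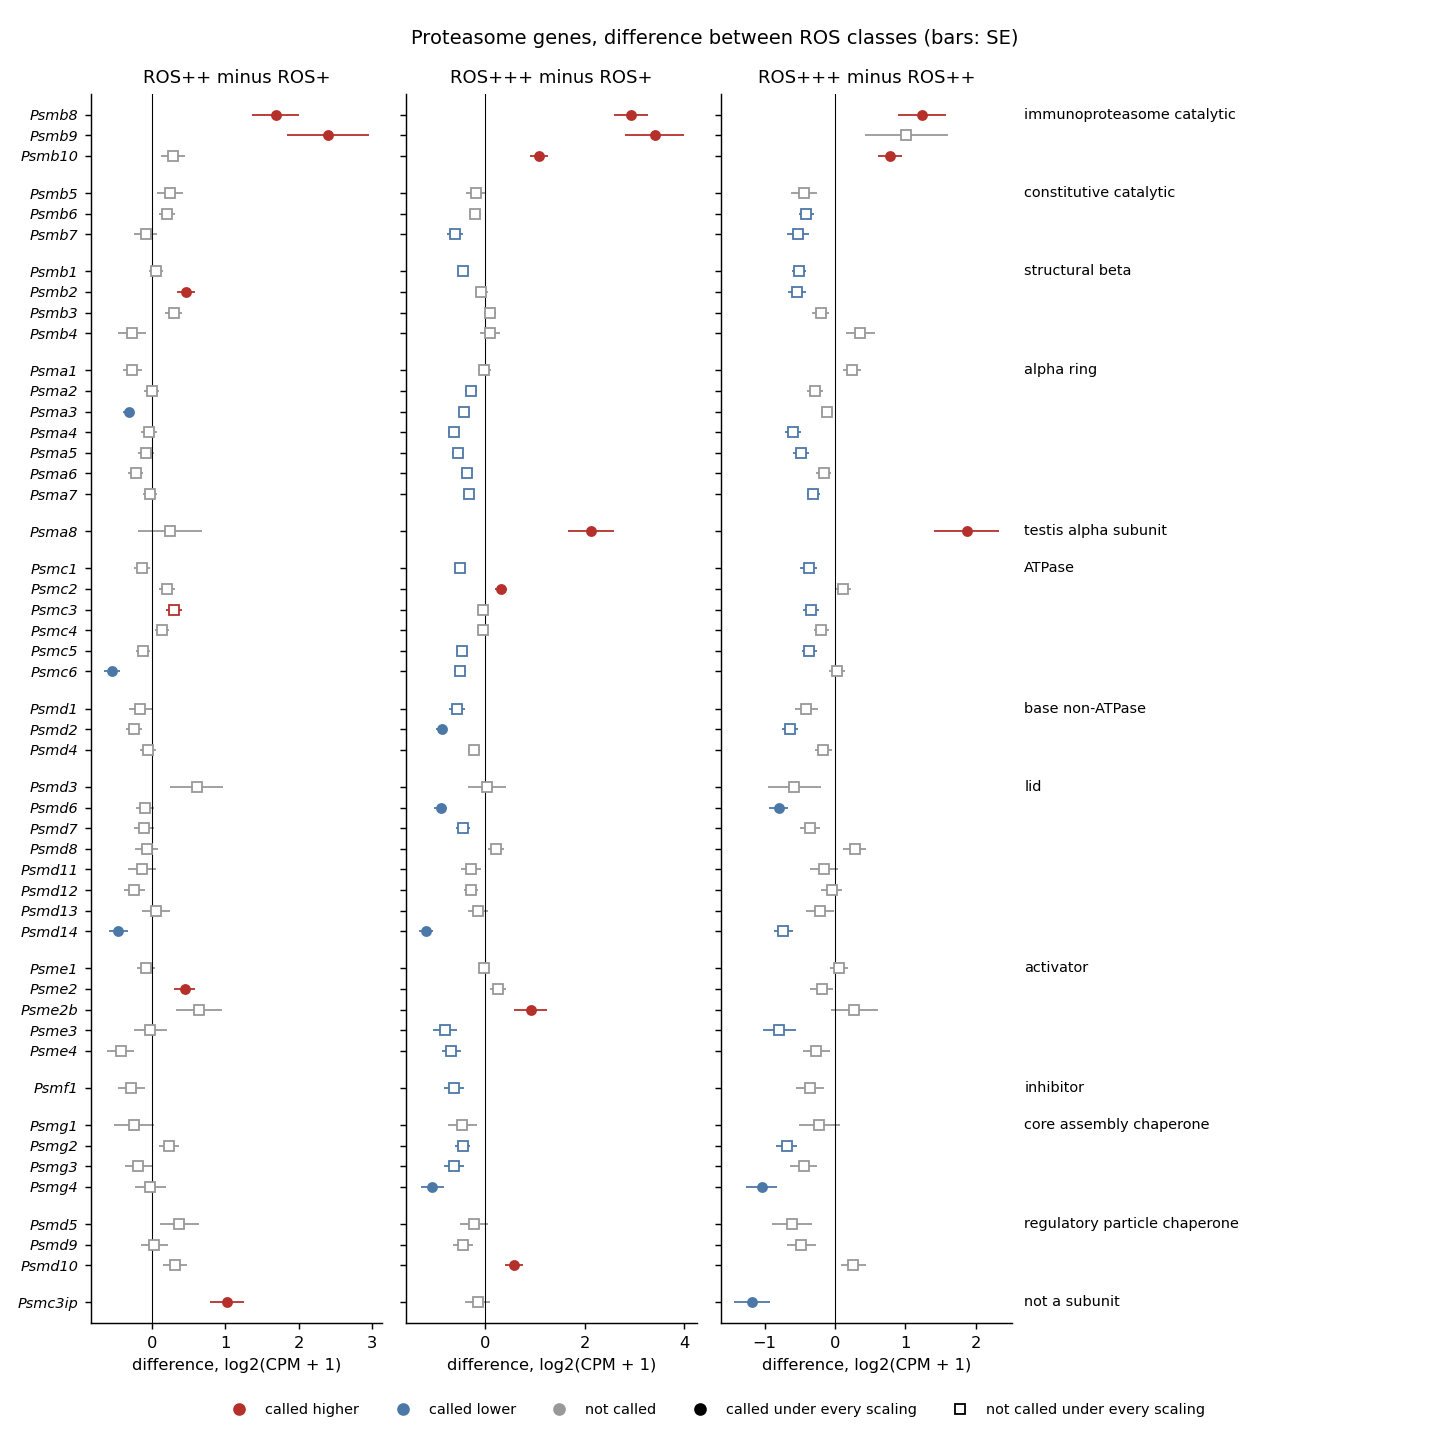
Differences of all 49 genes between ROS classes on the log2(CPM + 1) scale with the standard error, grouped by role, with a separate horizontal scale for each comparison. Red and blue mark genes called higher and lower in library-total CPM, and filled circles mark calls that also hold under the 3 other scalings; the blue open squares of the ROS+++ panels are calls that at least 1 other scaling loses. Psmb8 and Psmb9 stand out with 2.92 and 3.41 in ROS+++ against ROS+.

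Of the 17 regulatory particle genes, 1 rose and 2 fell in ROS++ against ROS+, beside 16.4% and 13.2% of all tested genes. Psmc6, an ATPase, fell by 0.54 ± 0.11 in ROS++ against ROS+ (adjusted p = 0.00117), with 199.8, 263.6, 167.5, 201.6 and 224.8 CPM in the ROS++ libraries, against 292.7, 281.8, 302.9, 320.5 and 323.2 CPM in the ROS+ libraries. No libraries overlapped. It remained at 205.4 to 226.0 CPM in the ROS+++ libraries, with a difference of 0.03 ± 0.12 from ROS++ (adjusted p = 0.883). Against ROS+ that level was lower by -0.51 ± 0.12 in library-total CPM (adjusted p = 0.00111), a call that the other scalings lost.

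Psmc2, another ATPase of the ring, rose by 0.32 ± 0.12 in ROS+++ against ROS+ (adjusted p = 0.0282). It had 287.7, 302.4, 313.8 and 262.7 CPM in the ROS+++ libraries, against 275.7, 253.5, 231.2, 233.7 and 184.2 CPM in the ROS+ libraries. The classes overlapped by 1 library each, and the call was lost without ROS+++ replicate 2, ROS+++ replicate 3 or ROS+ replicate 5. Psmc3 was called higher in ROS++ than in ROS+ by 0.30 ± 0.11 (adjusted p = 0.0479). Its libraries overlapped, with 266.3 to 368.0 CPM in ROS++ and 240.3 to 296.8 CPM in ROS+, and the call was kept in 11 of 23 alternatives. The call was lost in 10 of the 14 omissions of 1 library, namely ROS+ replicates 2 to 5, ROS++ replicates 1, 2, 4 and 5 and ROS+++ replicates 3 and 4. Psmc1 and Psmc5 were lower in ROS+++ than in ROS+ by -0.51 ± 0.12 and -0.48 ± 0.10 in library-total CPM, and neither call held under any of the other scalings. Psmc4 was called in no comparison in library-total CPM, with differences from -0.19 to 0.14, although relative log expression and TMM factors called it higher in ROS+++ than in ROS+.

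Psmd14, the lid enzyme that cuts ubiquitin from the substrate, fell with each step between the classes when measured in library totals. It had 354.1, 391.5, 338.4, 379.8 and 363.9 CPM in the ROS+ libraries, 229.3, 308.9, 200.6, 271.9 and 345.7 CPM in the ROS++ libraries, and 166.1, 137.8, 183.0 and 154.4 CPM in the ROS+++ libraries. Only ROS++ replicate 5 reached the range of the ROS+ libraries. Psmd14 fell by 0.45 ± 0.13 in ROS++ against ROS+ (adjusted p = 0.0144) and in ROS+++ against ROS+ the difference was -1.19 ± 0.14 (adjusted p = 1.12e-06), and both calls held under all 4 scalings. The difference of -0.74 ± 0.14 in ROS+++ against ROS++ (adjusted p = 0.000452) was not called with relative log expression factors.

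Psmd6, a structural lid subunit, fell in ROS+++ against both other classes under all 4 scalings. It had 91.7, 93.3, 104.8 and 127.3 CPM in the ROS+++ libraries, against 157.3, 167.0, 178.0, 195.6 and 212.4 CPM in the ROS++ libraries and 190.0, 189.5, 167.9, 224.3 and 197.6 CPM in the ROS+ libraries. The ROS+++ libraries lay below all the others, by -0.80 ± 0.13 from ROS++ (adjusted p = 0.000117) and by -0.89 ± 0.13 from ROS+ (adjusted p = 1.49e-05). Psmd2, a large scaffold of the base that binds ubiquitin-like domains, fell by 0.88 ± 0.12 in ROS+++ against ROS+ (adjusted p = 4.14e-06) under all 4 scalings, with 153.1, 160.9, 183.4 and 188.8 CPM in the ROS+++ libraries, against 328.8, 308.1, 342.3, 305.8 and 294.5 CPM in the ROS+ libraries. No libraries overlapped.

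In ROS+++ against ROS++, 6 of the 17 regulatory particle genes were called lower in library-total CPM, where 29.2% of all tested genes were. These were Psmc1 (-0.37 ± 0.12), Psmc3 (-0.34 ± 0.12), Psmc5 (-0.36 ± 0.10), Psmd2 (-0.64 ± 0.12), Psmd6 and Psmd14. Psmd6 was the 1 called under all 4 scalings. With relative log expression factors Psmc1, Psmc3 and Psmc5 took the opposite sign. The call of Psmc1 was also lost without ROS++ replicate 2 or ROS+++ replicate 2 or 4, and that of Psmc3 without ROS++ replicate 2 or 5 or ROS+++ replicate 2.

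Psmd1 and Psmd7 were lower in ROS+++ than in ROS+ by -0.57 ± 0.17 and -0.46 ± 0.14 in library-total CPM, and none of the other scalings kept either call. The ubiquitin receptor Psmd4 and the lid genes Psmd3, Psmd8, Psmd11, Psmd12 and Psmd13 were called in no comparison in library-total CPM, with differences from -0.58 (Psmd3, ROS+++ against ROS++) to 0.61 (Psmd3, ROS++ against ROS+). Psmd3 ranged from 4.70 to 16.1 CPM among the ROS+ libraries. Psmd8 was called higher in ROS+++ than in both other classes under each of the 3 other scalings.

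The activators form alternative caps on the core. Of Psme1 and Psme2, which build the interferon-linked cap together, Psme2 was called in 1 comparison and Psme1 in none in library-total CPM. Psme1 had 92.6, 100.5, 108.8, 97.6 and 108.3 CPM in the ROS+ libraries, 88.7, 92.3, 105.3, 99.9 and 92.9 CPM in the ROS++ libraries, and 87.1, 121.6, 95.8 and 97.0 CPM in the ROS+++ libraries. The classes overlapped fully, and the differences of -0.08 ± 0.12 (ROS++ against ROS+), -0.03 ± 0.13 (ROS+++ against ROS+) and 0.06 ± 0.13 (ROS+++ against ROS++) were not called (adjusted p = 0.649, 0.878 and 0.746). With relative log expression and TMM factors Psme1 was called higher in ROS+++ than in ROS+, and with all 3 other scalings higher in ROS+++ than in ROS++.

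Psme2 had 108.0, 86.2, 94.3, 116.7 and 85.4 CPM in the ROS+ libraries, 169.6, 140.4, 121.6, 120.3 and 119.3 CPM in the ROS++ libraries, and 154.2, 104.2, 111.8 and 101.8 CPM in the ROS+++ libraries. All ROS++ libraries lay above all ROS+ libraries. It rose by 0.45 ± 0.15 in ROS++ against ROS+ (adjusted p = 0.0300), a call lost without ROS++ replicate 1 or 2 and without ROS+ replicate 2, 3 or 5. The differences for ROS+++ were 0.25 ± 0.16 from ROS+ (adjusted p = 0.173; called higher under each of the 3 other scalings) and -0.19 ± 0.16 from ROS++ (adjusted p = 0.354). Psme2b, an intronless near-copy of Psme2 whose reads may be shared with it, had 10.3, 7.02, 9.001 and 4.41 CPM in the ROS+++ libraries, against 3.48, 3.02, 3.30, 3.92 and 3.47 CPM in the ROS+ libraries. It was higher by 0.92 ± 0.33 (adjusted p = 0.0242), which is uncertain for that reason and was lost without ROS+++ replicate 1 or 3.

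Psme3, whose cap sits mainly in the nucleus and serves ubiquitin-independent degradation, had 12.2, 14.3, 21.9 and 15.4 CPM in the ROS+++ libraries, against 24.98, 38.5, 25.7, 21.0 and 31.7 CPM in the ROS++ libraries and 29.5, 30.6, 29.8, 25.7 and 25.8 CPM in the ROS+ libraries. The ROS+++ libraries lay below all ROS+ libraries, and 1 of them overlapped with ROS++. In library-total CPM Psme3 was lower in ROS+++ by -0.79 ± 0.23 from ROS++ (adjusted p = 0.0122) and by -0.81 ± 0.23 from ROS+ (adjusted p = 0.0064), and none of the other scalings kept either call. Between ROS++ and ROS+ the difference was -0.02 ± 0.22 (adjusted p = 0.955).

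Psme4, a single large cap protein linked to histone degradation and DNA repair, had 70.5, 59.7, 51.4 and 36.0 CPM in the ROS+++ libraries, against 61.4, 52.3, 80.4, 76.0 and 53.6 CPM in the ROS++ libraries and 96.2, 73.6, 84.3, 86.7 and 89.1 CPM in the ROS+ libraries. The ROS+++ libraries lay below the ROS+ libraries and overlapped with ROS++. Its difference of -0.69 ± 0.19 from ROS+ (adjusted p = 0.00546) was called in library-total CPM and under none of the other scalings, and those of ROS++ against ROS+ (-0.42 ± 0.18, adjusted p = 0.0928) and of ROS+++ against ROS++ (-0.27 ± 0.19, adjusted p = 0.293) were not called. Psmf1, an inhibitor that binds the core ends, had 133.8, 72.8, 78.3 and 70.9 CPM in the ROS+++ libraries, against 140.6, 104.9, 84.7, 95.1 and 134.2 CPM in the ROS++ libraries and 113.2, 134.0, 165.2, 122.3 and 138.7 CPM in the ROS+ libraries. ROS+++ replicate 1 alone overlapped with both other classes. Psmf1 was lower in ROS+++ than in ROS+ by -0.63 ± 0.20 in library-total CPM (adjusted p = 0.0103) and under none of the other scalings, while the differences of -0.28 ± 0.19 (ROS++ against ROS+) and -0.35 ± 0.20 (ROS+++ against ROS++) were not called (adjusted p = 0.281 and 0.167). Without ROS+++ replicate 1 the last of these was called.

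Psme1 was also set against the other cap genes within each library. The log2 ratio of Psme1 to Psme3 averaged 1.81 ± 0.16 in ROS+, 1.75 ± 0.38 in ROS++ and 2.60 ± 0.39 in ROS+++ libraries (SD, n = 5, 5 and 4). It was higher in ROS+++ than in ROS+ by 0.79 and than in ROS++ by 0.85 (adjusted p = 0.0198 and 0.0357, exact permutation tests), and the difference between ROS++ and ROS+ was -0.06 (adjusted p = 0.754, exact permutation test). The log2 ratio of Psme1 to Psme4 averaged 0.24 ± 0.19 in ROS+, 0.58 ± 0.21 in ROS++ and 0.90 ± 0.46 in ROS+++ libraries. It was higher by 0.34 in ROS++ and by 0.66 in ROS+++, each against ROS+ (adjusted p = 0.0433 and 0.0357, exact permutation tests), and the difference of 0.32 between ROS+++ and ROS++ was not called (adjusted p = 0.221, exact permutation test). Leaving out ROS+ replicate 1 or 3 ended the call of Psme1 to Psme3 for ROS+++ against ROS+. The call for ROS+++ against ROS++ was lost without ROS++ replicate 1, 2, 3 or 5 or ROS+++ replicate 1, 2 or 4. Psme1 to Psme4 lost its call for ROS++ against ROS+ without ROS+ replicate 1, 3, 4 or 5 or ROS++ replicate 1, 2, 3 or 5, and for ROS+++ against ROS+ without any 1 ROS+ library or ROS+++ replicate 2, 3 or 4.

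Of the 4 assembly factors of the core, 3 were called lower in ROS+++ than in ROS+ in library-total CPM, as were 40% of all tested genes. Of the 3, 1 was called under all 4 scalings. Psmg4, which helps build the alpha ring, fell in ROS+++ against both other classes under all 4 scalings. It had 13.0, 12.8, 9.19 and 11.02 CPM in the ROS+++ libraries, against 20.7, 22.6, 27.4, 24.3 and 28.9 CPM in the ROS++ libraries and 22.0, 21.6, 28.9, 26.2 and 27.0 CPM in the ROS+ libraries. All ROS+++ libraries lay below the others, with differences of -1.05 ± 0.22 from ROS++ (adjusted p = 0.00119) and -1.07 ± 0.22 from ROS+ (adjusted p = 0.000528). Its partner Psmg3 was lower than in ROS+ by -0.63 ± 0.20 and Psmg2 by -0.46 ± 0.15 in library-total CPM, calls that none of the other scalings kept. Psmg2 was also lower than in ROS++ by -0.69 ± 0.15, which only upper-quartile factors kept, and Psmg1 was called in no comparison (10.3, 16.2, 9.33 and 17.6 CPM in the ROS+++ libraries, against 15.2 to 31.7 CPM in the ROS+ libraries).

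Of the 3 chaperones of the regulatory particle, Psmd10, also known as gankyrin, rose by 0.58 ± 0.17 in ROS+++ against ROS+ (adjusted p = 0.00866) under all 4 scalings, with 93.7, 86.4, 87.5 and 102.3 CPM in the ROS+++ libraries, against 69.8, 71.2, 53.7, 62.3 and 52.8 CPM in the ROS+ libraries. No libraries overlapped, and the ROS++ libraries (51.0 to 89.8 CPM) spanned both. Psmd5 and Psmd9 were called in no comparison, although limma-voom called Psmd9 lower in ROS+++ than in both other classes.

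Psmc3ip, the recombination protein, had 34.6, 33.1, 33.001, 28.6 and 36.8 CPM in the ROS++ libraries, against 15.3, 14.4, 16.9, 11.5 and 22.7 CPM in the ROS+ libraries, and 16.3, 9.28, 15.9 and 16.1 CPM in the ROS+++ libraries. The ROS++ libraries lay above all others, by 1.02 ± 0.24 from ROS+ (adjusted p = 0.00301), and ROS+++ fell by 1.18 ± 0.25 against ROS++ (adjusted p = 0.00113). ROS+++ and ROS+ differed by -0.16 ± 0.25 (adjusted p = 0.606). The summed cell cycle markers (10 genes) ran from 766.0 to 1356 CPM in ROS++, against 194.4 to 552.8 CPM in ROS+, and from 130.9 to 261.7 CPM in ROS+++. Their part in the level of Psmc3ip was not tested.

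By the F-test for any difference among the classes, 31 of 49 members were called, where 61.5% of all tested genes were. Of the 31, 18 (58.1%) peaked in ROS+ with a minimum in ROS+++, as did 46.0% of all called genes, and 6 (19.4%) peaked in ROS++ with a minimum in ROS+++, as did 16.2% of all called genes. A peak in ROS+++ with a minimum in ROS+ was found for 5 members, Psma8, Psmb8, Psmb9, Psmb10 and Psmd10, or 16.1%, against 24.1% of all called genes. Psmc6 peaked in ROS+ with a minimum in ROS++, and Psme2 the other way round. These orders are those of library-total CPM.

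Of 28 tested partner and regulator genes, 5 rose and 3 fell in ROS++ against ROS+, 7 were higher and 8 lower in ROS+++ against ROS+, and 4 higher and 5 lower in ROS+++ against ROS++, where 29.6%, 59.2% and 39.1% of all tested genes were called in either direction. The list medians were 0.0023, -0.12 and -0.16, beside medians of all tested genes of -0.03, -0.44 and -0.34. Nfe2l2, which encodes NRF2, rose by 1.71 ± 0.22 in ROS++ and by 2.76 ± 0.23 in ROS+++, each against ROS+, and by 1.05 ± 0.23 in ROS+++ against ROS++. Nfe2l1, which encodes NRF1, was higher in ROS+++ than in ROS+ by 0.80 ± 0.29 (adjusted p = 0.0237), a call lost without ROS+ replicate 1 or ROS+++ replicate 4. Its differences of 0.16 ± 0.27 for ROS++ against ROS+ and 0.64 ± 0.29 for ROS+++ against ROS++ were not called. Zfand5, a proteasome-binding protein, rose by 0.58 ± 0.14 in ROS++ against ROS+.

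Usp14, a deubiquitinase on the regulatory particle, fell, with differences of -0.71 ± 0.12 in ROS++ and -0.95 ± 0.12 in ROS+++, each against ROS+. Uba6, a ubiquitin-activating enzyme, fell, with differences of -0.64 ± 0.18 in ROS++ and -1.13 ± 0.19 in ROS+++, each against ROS+. The shuttle gene Ubqln4 fell in ROS+++ against ROS+ (-1.21 ± 0.22). In library-total CPM it was also lower against ROS++ (-0.95 ± 0.22), a call that relative log expression factors lost, and Ubqln2 was lower against ROS+ (-0.998 ± 0.26), lost likewise. The differences of Ubqln2 (-0.86 ± 0.26) and Ubqln1 (-0.73 ± 0.27) in ROS+++ against ROS++ were called in library-total CPM and under none of the other scalings, and that of Ubqln1 was also lost without ROS+ replicate 2, ROS++ replicate 1, 2 or 3 or ROS+++ replicate 1, 2 or 3, and that of Ubqln2 without ROS+++ replicate 2. The assembly factor Pomp, the ubiquitin receptor Adrm1 and the deubiquitinase Uchl5 were called in no comparison in library-total CPM. Pomp had differences of 0.08 ± 0.11, -0.08 ± 0.12 and -0.16 ± 0.12 in ROS++ against ROS+, ROS+++ against ROS+ and ROS+++ against ROS++, and with relative log expression factors the second was called higher at 0.36.

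Genes of interferon signalling and antigen presentation, the known companions of the immunoproteasome, were also measured. Of 19 tested, 12 rose in ROS++ against ROS+ (median 1.08), where 16.4% of all tested genes were called higher and 13.2% lower. In ROS+++ against ROS+, 12 were higher and 1 lower (median 1.53), beside 19.2% and 40% of all. In ROS+++ against ROS++, 5 were higher and 2 lower (median 0.39), beside 9.89% and 29.2% of all. The medians of all tested genes were -0.03, -0.44 and -0.34 in these comparisons. H2-K1, a class I molecule, rose by 2.14 ± 0.26 in ROS++ and by 2.91 ± 0.28 in ROS+++, each against ROS+. It was higher in ROS+++ than in ROS++ by 0.77 ± 0.28 (adjusted p = 0.0353), a call lost in 5 of the single omissions (ROS++ replicates 2, 4 and 5, ROS+++ replicates 2 and 3). Tap2, a peptide transporter, was higher by 1.49 ± 0.48 in ROS+++ against ROS++ (adjusted p = 0.0201), a call lost without ROS+++ replicate 2 and with a pseudocount of 0.1 CPM. Ifngr1, a subunit of the interferon-gamma receptor, rose by 2.44 ± 0.21 in ROS+++ against ROS+ and by 0.80 ± 0.21 against ROS++. The interferon-induced GTPase Iigp1 rose by 1.98 ± 0.46 in ROS++ and by 2.69 ± 0.49 in ROS+++, each against ROS+.

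Gbp2, another such GTPase, rose by 1.65 ± 0.58 in ROS++ and 3.39 ± 0.62 in ROS+++, each against ROS+, and by 1.74 ± 0.62 in ROS+++ against ROS++, of which the first was lost without ROS+ replicate 2, 3 or 5 or ROS++ replicate 1, 3 or 4 and the last without ROS++ replicate 2, 3 or 5 or ROS+++ replicate 2 or 3, and both with a pseudocount of 0.1 CPM. Irf8, an interferon-linked factor of myeloid cells, rose by 2.34 ± 0.57 in ROS++ against ROS+. Cd74, the invariant chain of class II presentation, was higher by 6.42 ± 1.66 in ROS++ and by 8.29 ± 1.76 in ROS+++, each against ROS+, and limma-voom kept neither call of Cd74. Pdia3, a chaperone of class I loading, was lower in ROS+++ than in ROS++ by -0.73 ± 0.21, which the other scalings did not keep.

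Within a class, the immunoproteasome genes and the macrophage sum did not always go together. ROS+++ replicate 4 had the lowest macrophage sum of its class, 1004 CPM, with a Psmb8 level of 27.9 CPM, while ROS+++ replicate 3 had 3099 CPM and the lowest Psmb8 level, 19.5 CPM. For Psmb9 the order in ROS+++ was that of the macrophage sum, with 23.1 and 21.3 CPM in the libraries of 3975 and 3099 CPM and 12.1 and 8.89 CPM in those of 1601 and 1004 CPM. In the same order of libraries, Psmb10 had 96.5, 100.2, 74.2 and 89.3 CPM. The sum of the 3 immunoproteasome genes was 147.7, 141.0, 115.4 and 126.0 CPM in that order. In ROS++, replicate 1 had the highest macrophage sum (3258 CPM), the highest mural sum (25370 CPM) and the highest sum of the 3 immunoproteasome genes (99.7 CPM). Replicate 5 had the lowest mural sum (8717 CPM) and the lowest immunoproteasome sum (45.2 CPM), at a macrophage sum of 1670 CPM, where replicate 2 with 1246 CPM had 70.8 CPM. In ROS++ replicates 4, 2 and 3, mural sums of 20023, 10375 and 10340 CPM stood beside immunoproteasome sums of 78.9, 70.8 and 68.0 CPM. Both sums thus had the same order over the ROS++ libraries. In ROS+++ they did not, with mural sums of 57028, 56906, 65429 and 56510 CPM in replicates 1 to 4. The immunoproteasome sums there were 115.4, 147.7, 141.0 and 126.0 CPM. The part of macrophage or mural RNA in the immunoproteasome levels was not tested.

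**Figure D5:**
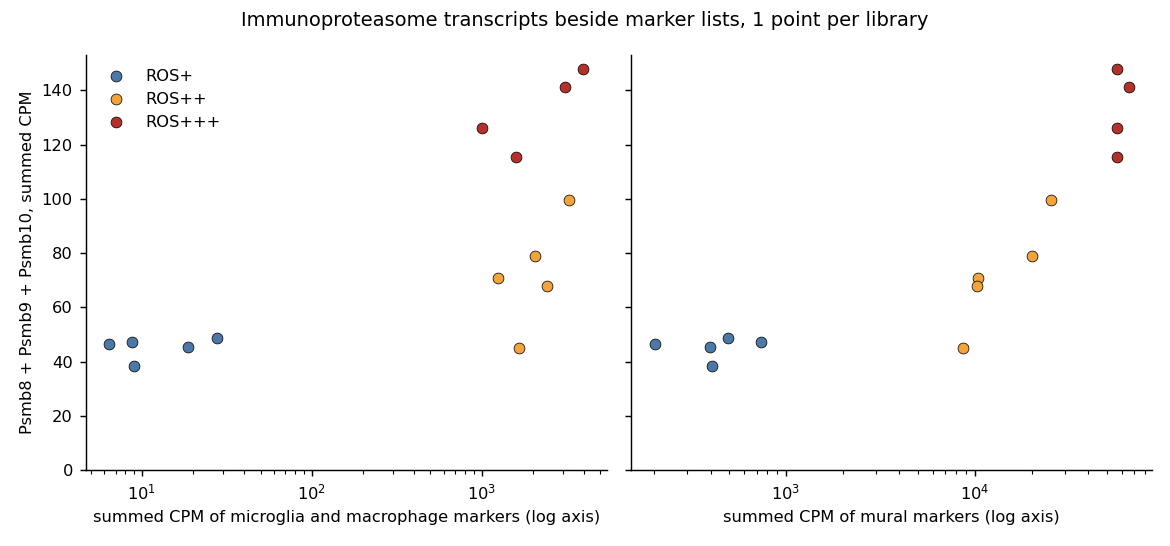
Summed CPM of Psmb8, Psmb9 and Psmb10 (vertical axis) beside the summed CPM of microglia and macrophage markers (left) and of mural markers (right), with both marker sums on a log axis, 1 point per library, coloured by ROS class. ROS+++ libraries lie at 115.4 to 147.7 CPM of immunoproteasome transcripts and ROS+ libraries at 38.4 to 48.7 CPM, and both marker sums are far lower in ROS+ libraries.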

How the data were processed

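RNA of GFP-positive dentate gyrus cells was measured in 14 libraries. Per the labels' protocols, cDNA was primed with poly-dT, extended by template switching and amplified over 12 cycles; they mention neither strand nor molecular identifiers, and the libraries are treated here as having none. The values the authors deposited are on a log2 scale and cover 15119 genes. Per the submitters' processing notes, STAR, edgeR and mm10 were used, with roles and versions not given in the sources used here. From its values, the deposited table holds logs of library-scaled reads with a small added prior: after removal of the shared lowest value (-4.36) each is a whole number of reads within 0.001. Every listed gene exceeds 1 CPM in at least 3 libraries, so low genes appear to have been removed before deposit.

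From these values the reads and CPM were recovered. Genes with at least 1 CPM in at least 4 libraries (15102, with 17 removed) were fitted as log2(CPM + 1), with a pseudocount of 1 CPM, in limma 3.58.1 (trend, robust with statmod 1.5.0, R 4.3.3), 1 mean per class, all 14 libraries and 11 residual degrees of freedom. This fold scale understates the change of low genes. Calls used a Benjamini-Hochberg adjusted p under 0.05 over all tested genes, and the fit was tested on simulated data. The 3 comparisons share libraries. Ratios were compared by exact permutation over libraries. Lengths are those of the longest principal transcript in GENCODE M21, which may differ from the authors' annotation. Of the members, 24 overlap another annotated gene, and without strand such reads, like those of near-copies and pseudogenes, cannot be separated. Limits for a count of 0 are 3 reads at 95% confidence and cover counting error only. The full values of the catalytic, activator and inhibitor genes are given, with the 3 called members that rose and the 3 that fell most in each comparison, and the 5 called genes of each outside list with the largest change, plus Nfe2l1, Pomp, Adrm1, Usp14 and Uchl5, except for 1 list gene that is not reported here. Other members described by library (Psmb2, Psma4, Psmc2, Psmc3, Psmd2, Psmd10, Psme2b and Psmg1) were chosen after their values were seen. Members and lists were chosen with earlier results of these data known. The alternatives tried were other scalings, pseudocount, filter, limma-voom, separate fits, single omissions and an assumed replicate block.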

Additional observations from a re-analysis of the deposited data

Results flagged for a closer look

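In 147 groups of 1 gene in 1 class, 12 had a library whose gap to its nearest neighbour was large against the range of the group, while chance flags about 1 in 20 groups. Psmb9 in ROS++ replicate 5 had 0.546 CPM, where the other 4 libraries had 9.97 to 14.0 CPM, and this library is the one that overlaps with ROS+. Psmb8 in ROS+++ replicate 3 had 19.5 CPM beside 27.9 to 29.1 CPM. Psmb10 and Psmb7 were both low in ROS+ replicate 3, with 36.3 CPM beside 42.5 to 43.9 CPM and 78.8 CPM beside 102.4 to 110.5 CPM.

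In ROS+++ libraries, Psmb4 was high in replicate 2 (108.2 CPM beside 68.4 to 71.8 CPM), Psmf1 was high in replicate 1 (133.8 CPM beside 70.9 to 78.3 CPM), Psmc3ip was low in replicate 2 (9.28 CPM beside 15.9 to 16.3 CPM) and Psmd5 was low in replicate 3 (11.05 CPM beside 21.1 to 22.1 CPM). In ROS++ libraries, Psmd4 was high in replicate 4 (167.3 CPM beside 130.1 to 139.1 CPM) and Psmd8 low in replicate 2 (90.7 CPM beside 150.9 to 175.4 CPM). In ROS+ libraries, Psmd12 was low (166.5 CPM beside 203.6 to 218.1 CPM) and Psmg1 high (31.7 CPM beside 15.2 to 17.1 CPM), both in replicate 2. What sets these libraries apart was not tested.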

How the results depend on the processing

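Scaling between libraries was the choice that moved the results most. In ROS+++ against ROS+, 7 higher and 22 lower members became 16 and 4 (relative log expression), 10 and 5 (upper quartile) and 14 and 4 (TMM), and in ROS+++ against ROS++ 3 and 17 became 11 and 3, 9 and 7, and 10 and 4. Signs turned, with at least 1 of the paired values called, for ROS+++ against ROS+ with relative log expression factors in Psma1 (0.42), Psma2 (0.15), Psma3 (0.014), Psma6 (0.061), Psma7 (0.11), Psmb2 (0.36), Psmc3 (0.40), Psmc4 (0.39), Psme1 (0.41) and Pomp (0.36), with TMM factors in Psma1 (0.36), Psma2 (0.088), Psma7 (0.050), Psmc3 (0.33), Psmc4 (0.33) and Psme1 (0.35), and with upper-quartile factors in Psma2 (0.0055). Against ROS++ they turned with relative log expression factors in Psma3 (0.31), Psma7 (0.11), Psmb6 (0.011), Psmc1 (0.043), Psmc3 (0.073) and Psmc5 (0.052), and with TMM factors in Psma7 (0.026). The scaling shifts all genes, and the median of all tested genes moved by up to 0.40.

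Leaving out 1 library gave 4 to 7 higher and 3 to 5 lower members in ROS++ against ROS+, where the count of 5 came without ROS++ replicate 2, 5 to 7 and 21 to 23 in ROS+++ against ROS+, 3 to 4 and 15 to 20 in ROS+++ against ROS++, and 28 to 32 by the F-test. The ratio differences ranged, for ROS++ against ROS+, ROS+++ against ROS+ and ROS+++ against ROS++, over 1.17 to 1.65, 2.92 to 3.34 and 1.48 to 1.95 (Psmb8 to Psmb5), 2.00 to 2.80, 3.36 to 3.84 and 0.81 to 1.63 (Psmb9 to Psmb6), 0.25 to 0.54, 1.59 to 1.88 and 1.15 to 1.499 (Psmb10 to Psmb7), -0.17 to 0.07, 0.66 to 0.96 and 0.72 to 1.02 (Psme1 to Psme3), and 0.26 to 0.39, 0.49 to 0.86 and 0.16 to 0.52 (Psme1 to Psme4). Fewer libraries raise the smallest p the exact test allows. With a pseudocount of 0.1 CPM, Psmb9 to Psmb6 was 3.86, 5.53 and 1.67 in these comparisons, the last no longer called. Limma-voom, separate fits, no filter and the deposited log2 values kept every count within 1.5 times.

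The labels pair no samples. An assumed replicate block of successive library numbers gave 7 higher and 3 lower members in ROS++ against ROS+, 7 and 22 in ROS+++ against ROS+, 3 and 18 in ROS+++ against ROS++, and 31 by the F-test. Of 13 pairs within such sets, 3 had deviations correlated over 0.1 (median 0.084, range -0.02 to 0.23). Of 52 pairs from other sets, 2 did (median -0.0089, range -0.15 to 0.16). The pairs within sets thus had the higher median, and whether the numbers pair the libraries is not known. The main fit and the ratio tests treat the libraries as unpaired. Depth limits the lowest genes most: Psma8, Psmb9, Psmb8 and Psme2b had as few as 0, 0, 30 and 56 reads in a library.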
